A study of Mus musculus with 40 samples.

Results

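Lost regions are stretches of the autosomes that carried an H3K27me3 peak in all 5 Control cultures of mouse oligodendrocyte progenitor cells (OPCs) and in none of the 5 K27M cultures. They were chosen by the measured peaks themselves: bases under an H3K27me3 broad peak in all 5 Control lists were joined into contiguous fragments, fragments of at least 200 bp were retained, and those that touched no peak of any K27M list were called lost. This gave 1945 lost regions among 7946 regions covered in all 5 Control libraries. The other regions served for comparison, with 3318 reached by a peak in 1 to 4 K27M libraries (partly lost) and 2683 reached in all 5 (kept). "Lost" refers to peak calls alone: signal that stayed below the caller's threshold cannot be seen in a peak list.

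The series compares OPCs that carry the histone H3.3 K27M mutation with OPCs of littermate Controls by chromatin immunoprecipitation and sequencing (ChIP-seq). The mutant mice carry a Cre-inducible K27M allele knocked into the endogenous H3-3a locus, and Cre is driven by a human GFAP promoter that is active in neural progenitors (AMGFAP-Cre;K27M in the labels). Brains of litters aged postnatal day 5 to 7 were pooled by brain region and genotype, so a culture is a pool of animals, and PDGFRa-positive cells were panned and kept in proliferation medium without differentiation. Brainstem cultures 59 and 61 and cortex cultures 59, 60 and 61, the last called telencephalon in the study's methods, each have a Control and a K27M member grown in parallel, with 1 H3K27me3 and 1 H3K4me3 library apiece.

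H3K27me3 is the repressive mark written by Polycomb repressive complex 2 (PRC2), which is recruited above all to unmethylated CpG-rich promoters of developmental genes and from there spreads into flanking chromatin. Methionine in place of lysine 27 on a fraction of histone H3 hampers PRC2 and is known to reduce H3K27me3 over much of the genome while leaving it at strong PRC2 target sites. H3K4me3 marks active or poised promoters, and a promoter with both marks is called bivalent.

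The H3K27me3 lists covered 26.2 to 106 Mb of the autosomes in the 5 Control libraries and 12.5 to 23.1 Mb in the 5 K27M libraries. The shortest Control coverage was that of cortex 59, whose list held 12526 autosomal peaks against 25366 to 53757 in the other 4. The lists do not hold read depth, so the number of libraries limits the precision of every value. OPC markers were present: 9 or 10 of 10 OPC marker genes, such as Pdgfra and Olig2, had a promoter H3K4me3 peak in every library of either genotype, and no OPC marker promoter held a region covered in all 5 Control libraries. Such peaks were also found at 0 or 1 of 7 microglia, 2 or 3 of 7 endothelium, 1 to 3 of 6 fibroblast and pericyte, 4 of 7 mature oligodendrocyte, 4 to 8 of 8 astrocyte and 6 to 9 of 9 neuron markers, a mark that poised genes carry too. The part of other cells in the results was not tested.

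Windows of 300 bp show what the lost sequence looks like beside kept sequence. They are taken from the mm10 reference, plus strand, at the centre of exon-free promoter stretches of 3 of the genes with the most lost promoter bases (Olfr1420, an olfactory receptor, Olah, a fatty acid thioesterase, and Vmn1r233, a vomeronasal receptor) and of the 2 kept genes with the most covered promoter bases (P4ha2, a collagen prolyl hydroxylase, and Gata3, a developmental transcription factor). Capitals mark CpG, the dinucleotide that is dense at PRC2 target promoters.
Olfr1420 (chr19:11885415-11885714): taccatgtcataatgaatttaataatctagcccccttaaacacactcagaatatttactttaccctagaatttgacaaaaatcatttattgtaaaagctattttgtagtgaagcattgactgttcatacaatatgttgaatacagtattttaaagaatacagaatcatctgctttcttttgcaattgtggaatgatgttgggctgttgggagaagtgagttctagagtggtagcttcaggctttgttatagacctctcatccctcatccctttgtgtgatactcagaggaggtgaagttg
Olah (chr2:3367446-3367745): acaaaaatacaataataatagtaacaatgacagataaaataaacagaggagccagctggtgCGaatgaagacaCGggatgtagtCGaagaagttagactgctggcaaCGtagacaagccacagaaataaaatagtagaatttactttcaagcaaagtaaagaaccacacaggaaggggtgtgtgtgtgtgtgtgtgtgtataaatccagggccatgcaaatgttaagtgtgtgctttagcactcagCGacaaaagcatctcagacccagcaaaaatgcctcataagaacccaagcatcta
Vmn1r233 (chr17:20997315-20997614): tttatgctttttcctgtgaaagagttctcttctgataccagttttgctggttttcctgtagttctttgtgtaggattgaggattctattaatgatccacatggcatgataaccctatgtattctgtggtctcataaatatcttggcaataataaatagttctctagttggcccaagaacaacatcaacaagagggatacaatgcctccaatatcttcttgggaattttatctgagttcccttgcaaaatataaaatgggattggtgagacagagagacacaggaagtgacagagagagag
P4ha2 (chr11:54123634-54123933): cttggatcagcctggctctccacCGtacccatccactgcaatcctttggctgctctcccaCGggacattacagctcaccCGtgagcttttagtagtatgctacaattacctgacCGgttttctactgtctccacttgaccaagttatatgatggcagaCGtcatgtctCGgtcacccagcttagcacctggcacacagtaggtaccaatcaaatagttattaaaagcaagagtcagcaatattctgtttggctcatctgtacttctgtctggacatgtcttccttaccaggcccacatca
Gata3 (chr2:9890885-9891184): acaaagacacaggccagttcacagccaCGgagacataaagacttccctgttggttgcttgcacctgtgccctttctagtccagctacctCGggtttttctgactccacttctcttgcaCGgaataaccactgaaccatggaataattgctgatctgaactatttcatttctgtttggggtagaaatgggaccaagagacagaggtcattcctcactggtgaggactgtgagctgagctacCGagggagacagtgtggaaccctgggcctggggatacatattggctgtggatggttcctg
The windows of Olfr1420 and Vmn1r233 held 0 CpG and that of Olah held 5. The kept windows held 6 at P4ha2 and 4 at Gata3, so single windows of the 2 classes overlapped in CpG number. GC content was 35.3%, 38.0% and 40.7% in the lost windows of Olfr1420, Vmn1r233 and Olah, below the 48.0% at P4ha2 and 50.0% at Gata3.

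Lost regions were many and short. They made up 24.5% of all regions covered in the 5 Controls but, at 1.51 Mb, 8.28% of the covered bases, because their median length was 529 bp (interquartile range 351 to 921 bp) while kept regions had a median of 2860 bp. Kept regions made up 33.8% of the regions and 69.8% of the bases, and the longest of them spanned 194787 bp against 9362 bp for the longest lost region. Regions reached in 1, 2, 3 and 4 K27M libraries numbered 728, 756, 742 and 1092, and their median length increased in that order from 651 to 714, 929 and 1054 bp. Of the 728 regions outside the lost set by a single library, 275 were reached by K27M brainstem 61 alone, 227 by cortex 60, 122 by cortex 61, 92 by brainstem 59 and 12 by cortex 59. At the edge of the rule, 117 members were shorter than 250 bp, and 114 fragments of 150 bp or more were free of K27M peaks but too short to count. In 45 members a K27M peak began within 100 bp, and 65 regions were left out for an overlap below 100 bp with a peak of 1 K27M library.

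**Figure D1:**
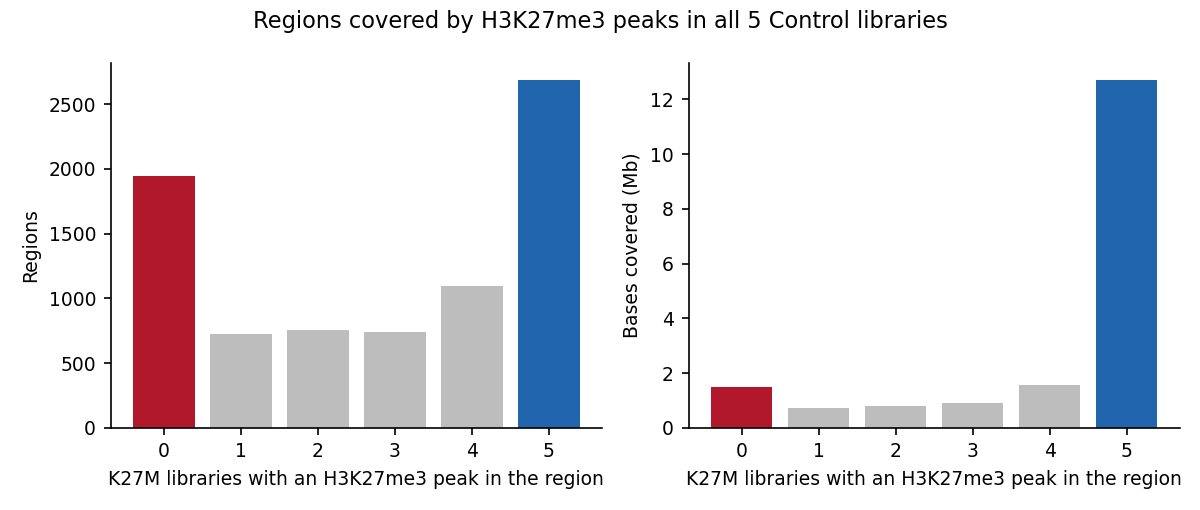
Number of regions (left) and bases covered in Mb (right) for the 7946 regions under H3K27me3 peaks in all 5 Control libraries, by the number of K27M libraries with an H3K27me3 peak in the region. Red bars are lost regions (0 libraries; 1945 regions, 1.51 Mb), grey bars partly lost and blue bars kept regions (5 libraries; 2683 regions, 12.7 Mb).

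Lost regions were weakly enriched in the Controls. Their median fold enrichment over input, the authors' value for the Control peak that covers the region, was 2.87 and 3.10 in brainstem 59 and 61 and 2.57, 3.01 and 3.01 in cortex 59, 60 and 61. Kept regions had medians of 5.18, 4.80, 2.82, 7.25 and 5.43 in the same libraries, so the classes lay closest in cortex 59. Averaged over the 5 libraries, the median was 2.91 ± 0.208 (SD, n = 5) for lost, 3.54 ± 0.675 for partly lost and 5.10 ± 1.58 for kept regions. Partly lost regions had medians of 3.69, 3.4, 2.48, 4.32 and 3.79 in the order above, below the lost median in cortex 59 and above it in the other 4. These values come from lists that the rule used and describe the members only.

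The share of lost regions followed the weakest of the 5 Control peaks over a region, taken by its −log10 q. Where that peak was under 1.5, 463 of 966 regions were lost (47.9%), between 1.5 and 2 769 of 1808 (42.5%), between 2 and 3 612 of 2229 (27.5%), and between 3 and 5 94 of 1370 (6.86%). At 5 or more, 7 of 1573 regions were lost (0.445%) and 94.6% were kept. The weakest Control peak was that of cortex 59 in 58.6% of lost and 62.7% of kept regions. Among the 2943 regions with a −log10 q of at least 3 in every Control, 101 were lost, or 3.43%, a count added after the data were seen. These 101 had a median length of 1460 bp, 22 overlapped a promoter, 12 lay within 20 kb of an olfactory or vomeronasal receptor gene and 18 had an H3K4me3 peak in any library.

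**Figure D2:**
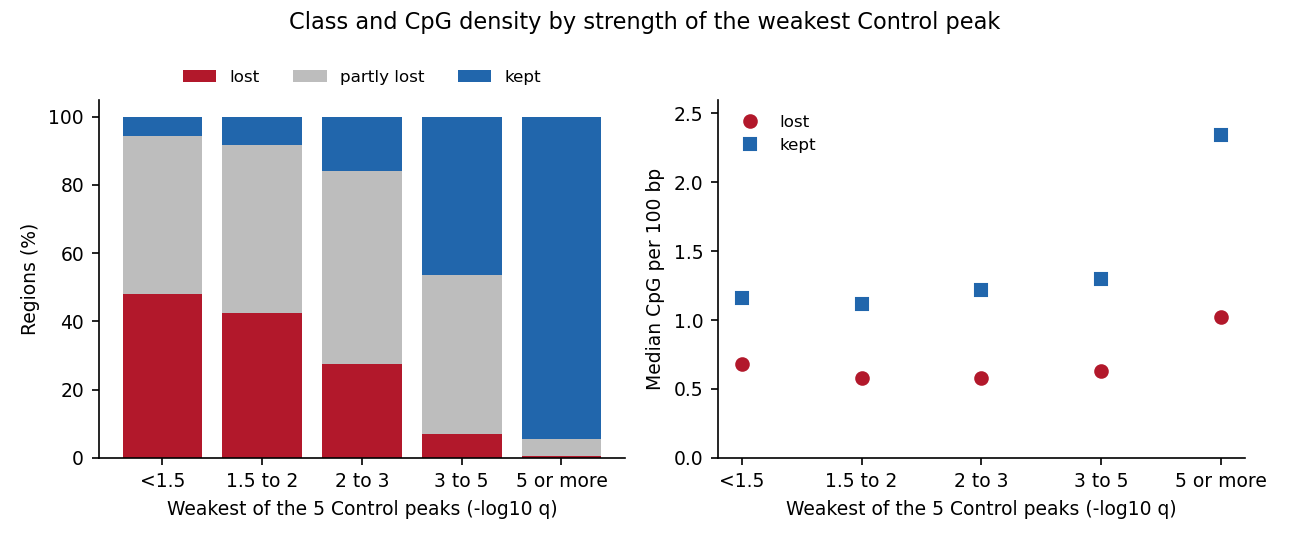
Left, share of regions (%) that were lost, partly lost or kept, by the −log10 q of the weakest of the 5 Control H3K27me3 peaks over the region, from under 1.5 to 5 or more. Right, median CpG per 100 bp of lost (circles) and kept (squares) regions in the same bins. The lost share drops from 47.9% to 0.445% across the bins, and in each bin the lost median lies below the kept median.

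The K27M lists were also compared with each other. The rule was rebuilt with 4 K27M lists and read in the fifth. In K27M brainstem 59, 1945 of 2037 regions so found were free of a peak (95.5%), against 44.6% of all 7946 regions. In brainstem 61 the shares were 87.6% and 36.3%, in cortex 59 99.4% and 60.5%, in cortex 60 89.5% and 36.2%, and in cortex 61 94.1% and 42.4%. The held-out share exceeded that of all regions in each of the 5 libraries, with means of 93.2% and 44.0%. All regions include those with strong Control peaks, which were seldom lost. The excess therefore mixes the likeness of the K27M lists with Control peak strength and is not an independent measure of loss. The 1945 regions free of a peak are by construction the lost regions themselves. Each held-out share thus follows from the number of regions reached by that library alone, given above. The same reading was made with each Control held out. Regions covered in the other 4 Controls and free of K27M peaks were reached by a peak of the held-out Control in 89.5% and 64.4% for brainstem 59 and 61, and in 29.6%, 93.3% and 94.9% for cortex 59, 60 and 61. The Control of cortex 59 thus lacked a peak in most of the 6101 regions that the other 4 Controls would call lost, whereas 97.0% of kept regions were reached there.

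Lost regions were poorer in CpG than kept regions. Their median was 0.604 CpG per 100 bp (interquartile range 0.321 to 1.06), against 0.980 in partly lost and 1.74 in kept regions. All autosomal bases of the reference held 0.851, a value pooled over bases that is not the same measure as a median of regions. Without cortex 59 the lost median was 0.862, against 1.78 in kept regions. The median of regions increased with each further K27M library that reached them, from 0.806 at 1 library to 0.902, 0.969 and 1.19 at 2, 3 and 4. GC content had medians of 40.7% in lost and 48.5% in kept regions, and the ratio of observed to expected CpG had medians of 0.152 and 0.314. A CpG island composition, with at least 50% GC and a ratio of at least 0.6 over the whole region, was met by 1 lost region and by 187 kept regions, and 161 lost regions (8.28%) had no CpG at all. The difference was also present in a narrower range of length and, separately, within bins of the weakest Control peak. Between 500 and 1500 bp, a restriction added after the data were seen, the medians were 0.622 in 850 lost and 1.75 in 549 kept regions. Within bins of the weakest Control peak they were 0.680 and 1.16 under a −log10 q of 1.5, 0.578 and 1.12 from 1.5 to 2, 0.579 and 1.22 from 2 to 3, and 0.633 and 1.3 from 3 to 5. The bins match the weakest Control peak alone and not the strength in the other Controls. Length still differed within them, with medians of 755 bp in lost and 1331 bp in kept regions from 2 to 3. Length and strength were not matched together. Regions are not replicates, and no p-value was computed for these medians.

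Repeats took a larger share of the median lost region than of the median kept region. The median soft-masked share, the bases that the reference marks as interspersed or simple repeats, was 19.6% in lost, 14.9% in partly lost and 15.0% in kept regions. Of all autosomal bases 33.5% are masked, a pooled share that is not the same measure as a median of regions. More than 80% of the bases were masked in 223 lost regions (11.5%, 95% Wilson confidence interval 10.1% to 13%), in 2.38% of partly lost and in 0.410% of kept regions. Reads from repeats can map to several places, and the part of read mapping in these peaks was not tested. Wilson intervals here cover the counting of regions only.

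Few lost regions lay at promoters. A promoter window, from 2000 bp upstream to 1000 bp downstream of an annotated transcript start, was overlapped by 261 lost regions, or 13.4% (95% Wilson confidence interval 12% to 15.0%), by 25.8% of partly lost and by 55.6% of kept regions (53.7% to 57.4%). Such windows covered 8.74% of the autosomes and held 10.1% of the lost bases and 29.1% of the kept bases. The share increased with the number of K27M libraries, from 18.4% at 1 to 19.4%, 23.0% and 37.1% at 2, 3 and 4. By midpoint, which does not favor long regions, it was 11% for lost and 37.1% for kept regions, and between 500 and 1500 bp it was 12.6% and 52.1%. Where the weakest Control peak was under a −log10 q of 1.5, 13.0% of lost and 18.5% of kept regions lay at a promoter. The shares were 13.3% and 33.1% from 1.5 to 2, 12.6% and 35.9% from 2 to 3, and 23.4% and 46.1% from 3 to 5. The difference was thus smallest at the weakest Control peaks. Exons were overlapped by 9.82% of lost and 52.3% of kept regions, and bodies of protein-coding genes by 34.4% and 63.3%. The median distance to the nearest transcript start was 8456 bp for lost and 692 bp for kept regions. Lost regions were nevertheless seldom remote, with 55.5% within 10 kb of a transcript start and 7.71% farther than 50 kb.

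**Figure D3:**
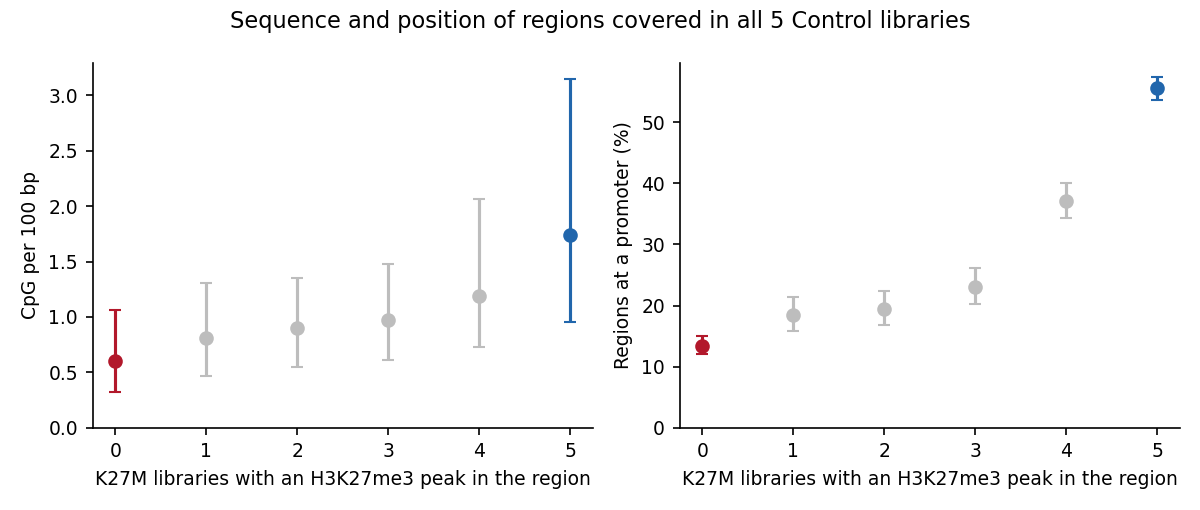
Left, CpG per 100 bp (points, medians; bars, interquartile range) and right, share of regions (%) overlapping a promoter window (bars, 95% Wilson interval), by the number of K27M libraries with an H3K27me3 peak in the region. Both measures increase step by step from lost regions (red, 0.604 and 13.4%) to kept regions (blue, 1.74 and 55.6%).

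Lost regions lay beside K27M peaks as well as far from them. The nearest K27M peak of any library was within 1000 bp for 314 (16.1%), from 1000 to 5000 bp for 459, from 5000 to 20000 bp for 371, from 20000 to 100000 bp for 368 and over 100000 bp away for 433 (22.3%). Median CpG per 100 bp was 0.779, 0.651, 0.598, 0.531 and 0.495 in these groups, and the share with more than 80% masked bases was 2.55%, 6.54%, 13.2%, 17.9% and 16.2%. Few lost regions were edges of a Control peak that also held a kept region: 10.9% and 6.02% in Control brainstem 59 and 61 and 1.75%, 9.97% and 13.1% in Control cortex 59, 60 and 61.

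Chromosomes differed in their lost share. It was highest on chromosome 17 (132 of 390 regions, 33.8%), chromosome 16 (65 of 202, 32.2%) and chromosome 7 (202 of 672, 30.1%), and lowest on chromosome 4 (86 of 563, 15.3%) and chromosome 12 (53 of 325, 16.3%). The 5 stretches of 1 Mb with the most lost bases varied in this respect. The stretch chr2:26000001-27000000 held 23 lost regions with 36138 bp, near Lcn4, a lipocalin gene, Abo, the blood group glycosyltransferase, and Surf6. The stretch chr11:96000001-97000000 held 32 lost regions with 34423 bp, all between 96396094 and 96754052 around Skap1, a T cell adaptor gene, and Snx11. The first of them starts 27837 bp beyond the HoxB cluster (chr11:96194316-96368256), whose own regions were 13 kept, 8 partly lost and 0 lost. In the stretch chr11:103000001-104000000, 16 lost regions with 20310 bp lay near Gm884, Lrrc37a, Lyzl6, Rprml and Gosr2. The stretch chr17:33000001-34000000 held 24 lost regions with 19012 bp. They lay near olfactory receptor and zinc finger genes (Olfr55, Olfr63, Olfr239, Olfr1564, Zfp101, Zfp563, Zfp955a) and near Actl9, Adamts10, Morc2b and 4921501E09Rik. The stretch chr19:11000001-12000000 held 14 lost regions with 16583 bp near Olfr1417, Olfr1419, Olfr1420, Ms4a18, Gif, Mrpl16, Patl1 and Stx3. In the order above, the 5 stretches also held 3, 23, 4, 9 and 1 kept regions, with 20804, 316914, 22163, 28802 and 810 bp. Their partly lost regions held 28089, 76986, 4987, 38864 and 6346 bp.

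The Hox clusters, the classic PRC2 targets that pattern the body axis, held no lost region, while their flanks held lost, partly lost and kept ones. Promoters of 36 of 39 autosomal Hox genes held a region covered in all 5 Controls, and all 36 had a peak in all 5 K27M libraries. Over all 1887 protein-coding genes with such a region at a promoter, 66.1% had a peak in all 5 K27M libraries. A lost promoter was found in 5.83% of them, so 0 lost of 36 cannot be set apart from that share. Inside the clusters the regions were kept except for 8 partly lost in HoxB and 1 in HoxD. Within 500 kb outside the clusters there were 34 lost, 34 partly lost and 15 kept regions at HoxB, 17, 15 and 4 at HoxD, 10, 10 and 11 at HoxC, and 2, 2 and 7 at HoxA. Over all 7946 regions 24.5% were lost and 33.8% were kept. The nearest lost region was 20376 bp from HoxD, 27837 bp from HoxB, 58500 bp from HoxC and 70318 bp from HoxA. The flanks were examined after the HoxB stretch had been seen.

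The longest lost region covered 9362 bp of Olah on chromosome 2 (chr2:3364010-3373371) across a transcript start. Its Control peaks had fold enrichments of 3.44 and 3.71 in brainstem 59 and 61 and of 3.16, 3.71 and 4.78 in cortex 59, 60 and 61, and the nearest K27M peak was 17495 bp away. The next, 9146 bp at Gm884 (chr11:103610508-103619653), had fold enrichments of 3.30, 3.68, 2.78, 3.21 and 4.37 in the same order, and lay 20361 bp from a K27M peak. Each Control was thus enriched 2.78-fold or more at both genes, and no library of either genotype had an H3K4me3 peak in these regions.

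Regions of 7528 and 5741 bp adjoined each other upstream of Lcn4 (chr2:26684231-26691758 and chr2:26692267-26698007) in sequence that was 83.6% and 91.2% masked. Masked sequence also made up 88.5% of a region of 5168 bp near Zfp157 (chr5:138423799-138428966) and 96.7% of a region of 4816 bp in an intron of Cdkl4 (chr17:80526309-80531124). Vmn1r233 (chr17:20993548-21000042, 6495 bp) stood far from any K27M peak, at 375201 bp, with Control fold enrichments of 3.39, 3.79, 3.17, 3.29 and 3.27. Other chemosensory genes among the 15 longest were Olfr370, whose start was 3052 bp from a lost region of 4847 bp (chr8:83527882-83532728), Olfr1420 (chr19:11882687-11887002, 4316 bp) and Vmn2r80, with 4242 bp in an intron (chr10:79187058-79191299). An intergenic region of 6445 bp (chr9:69933939-69940383) was 49083 bp from the start of Bnip2, with fold enrichments of 3.76, 4.31, 3.48, 4.54 and 3.97 and a CpG density of 1.15 per 100 bp, the highest of the 15. Intergenic regions of 4991 bp (chr3:17590041-17595031), 4530 bp near Pkp2 (chr16:16188088-16192617) and 4453 bp near Gm4559 (chr7:142265123-142269575) completed the 15 together with Nxph2.

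Nxph2, which encodes a secreted neurexin ligand (6470 bp), was the only 1 of the 15 with H3K4me3. Its Control H3K27me3 peaks had fold enrichments of 3.75 and 4.00 in brainstem and 4.94 and 4.95 in cortex 60 and 61, and 2.89 in cortex 59. An H3K4me3 peak lay in the region in 4 Control and 5 K27M libraries, and the nearest K27M H3K27me3 peak was 250356 bp away.

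Genes were counted by their promoters. Of 1887 autosomal protein-coding genes with a region covered in all 5 Controls in a promoter window, 110 had a lost region there and no H3K27me3 peak of any K27M library in any of their windows (5.83%), and 1247 had a K27M peak in a window in all 5 libraries and were called kept (66.1%). The other 530 were called partly kept: 520 had a K27M peak in a window in 1 to 4 libraries, and 10, among them Zfp950 and Ifnab, had none in a window but no lost region there either, since a K27M peak reached their region outside it. Without cortex 59, 500 of 3037 genes had a lost promoter (16.5%), and without brainstem 61 181 of 1983 (9.13%), so the share set beside the lists depends on these cultures. Another 48 genes had a lost region in a window but a K27M peak elsewhere in their windows. The lists below, chosen with earlier results of these data known, describe which genes these were.

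Olfactory and vomeronasal receptors, the G protein-coupled chemosensory receptors of the nose, made up the list with the highest lost share. Of 40 with a region covered in all 5 Controls, from 1457 such genes, 34 had a lost promoter (85.0%, beside 5.83% of all genes counted), 6 were partly kept and 0 were kept. With each culture left out in turn, 34 of 40 to 63 of 71 were lost, and 2 were kept without cortex 59 and 0 otherwise. The 4 with the most lost bases were Olfr1420 (3557 bp; gene at chr19:11886565-11898079, plus strand), Vmn1r233 (3000 bp; chr17:20989747-20996464, minus strand), Olfr1535 (2814 bp; chr13:21553894-21559893, minus strand) and Vmn1r89 (2137 bp; chr7:13213020-13220657, plus strand). Olfr239 (1888 bp) and Olfr802 (1830 bp) were also among the 15 genes with the most lost promoter bases. Control fold enrichment varied among them. At Olfr1420 the longest region had 2.87 and 3.97 in brainstem 59 and 61 and 2.86, 3.23 and 4.47 in cortex 59, 60 and 61, and Vmn1r233, given above, exceeded the lost median in each library. At Olfr802 it was 2.39 and 3.03 in brainstem 59 and 61 and 3.02, 3.24 and 2.94 in cortex 59, 60 and 61. None of the 34 promoters had an H3K4me3 peak in any of the 10 libraries.

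The same was seen for regions near such genes. Of the lost regions, 157 (8.07%) lay within 20 kb of an olfactory or vomeronasal receptor gene, against 36 partly lost (1.08%) and 9 kept regions (0.335%). These 157 had a median of 0.382 CpG per 100 bp (interquartile range 0.228 to 0.646) and were 61160 bp (median) from the nearest K27M peak, and 2 had an H3K4me3 peak in any library. Of them, 28 lay on chromosome 17, 23 on chromosome 7 and 19 on chromosome 10. The receptors belong to large families of similar sequence, and how reads with several equally good positions entered the peak calls is not given in the sources used here, so values of single receptors are uncertain.

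**Figure D4:**
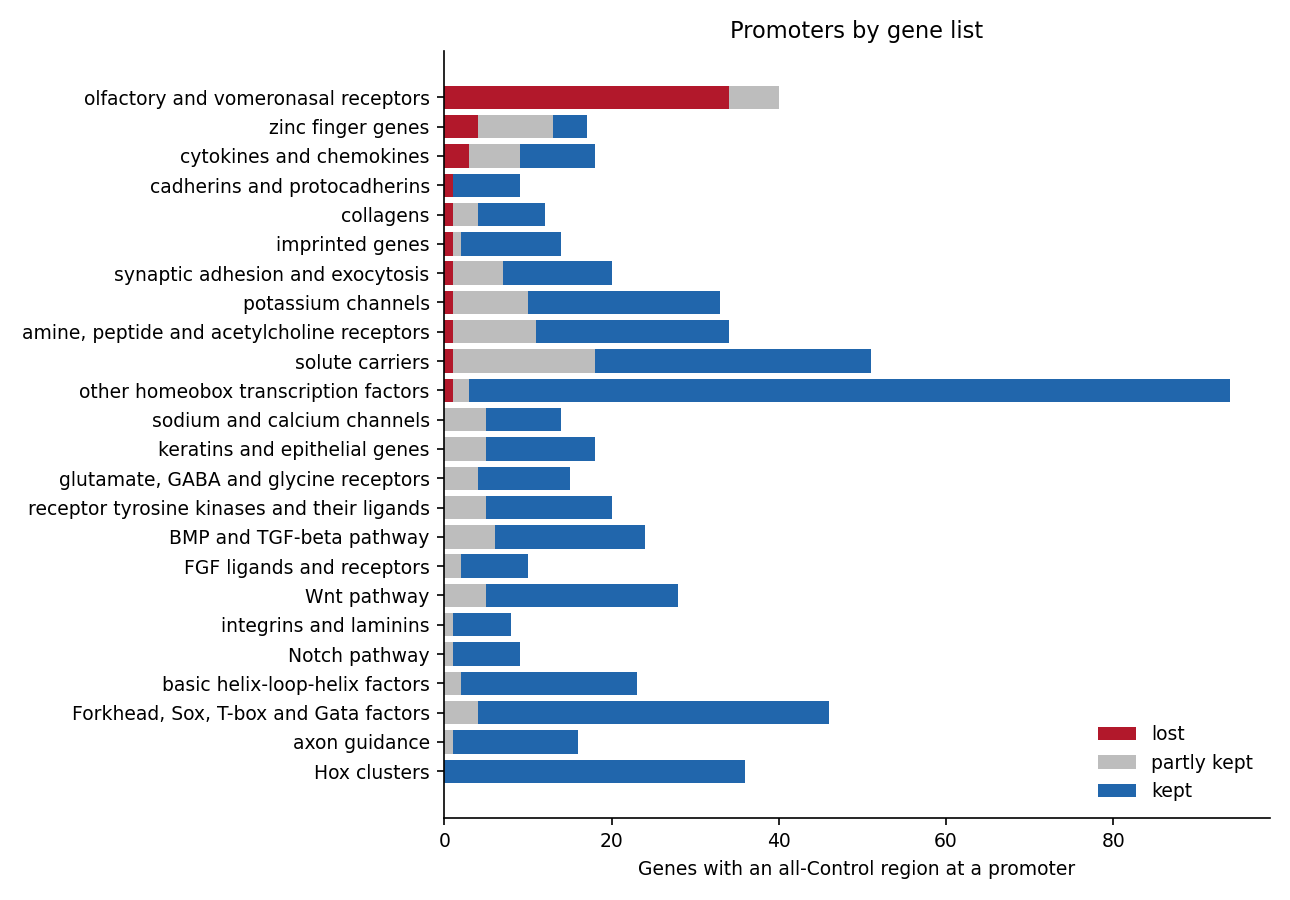
Number of autosomal protein-coding genes with a region covered by H3K27me3 in all 5 Controls at a promoter (x axis), for the 24 gene lists with at least 8 such genes, divided into lost (red), partly kept (grey) and kept (blue). Olfactory and vomeronasal receptors were lost in 34 of 40, while the Hox list was kept in 36 of 36. Over all genes counted 5.83% were lost and 66.1% kept.

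Developmental regulators were rare among the lost promoters. Lost promoters were also few over all genes counted, with 5.83% lost and 66.1% kept. In the shorter lists below, 0 lost genes cannot be set apart from that share. No lost promoter was found among 46 Forkhead, Sox, T-box and Gata factors (42 kept), 23 basic helix-loop-helix factors (21 kept), 28 genes of the Wnt pathway (23 kept), 24 of the BMP and TGF-beta pathway (18 kept), 10 FGF ligands and receptors (8 kept), 6 genes of the Hedgehog pathway (6 kept), 9 of the Notch pathway (8 kept) and 16 axon guidance genes (15 kept). Of 94 other homeobox factors 91 were kept and 1 was lost, Hesx1, a regulator of forebrain and pituitary development, with 287 bp. Its promoter had H3K4me3 peaks in 1 Control and 3 K27M libraries. Keratins and epithelial genes had 0 lost of 18, receptor tyrosine kinases and their ligands 0 of 20 and integrins and laminins 0 of 8, and the OPC, myelin, microglia and fibroblast markers had no region covered in all 5 Controls.

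Neuronal genes gave single cases. Potassium channels lost 1 of 33 (Kcnh7, 392 bp), receptors for amines, peptides and acetylcholine 1 of 34 (Npy1r, the neuropeptide Y receptor Y1, 351 bp) and synaptic genes 1 of 20 (Cntnap2, a neurexin-family adhesion protein, 305 bp). Sodium and calcium channels had 0 of 14 and glutamate, GABA and glycine receptors 0 of 15. Cadherins lost 1 of 9 (Pcdhb2, 403 bp), collagens 1 of 12 (Col8a1, 577 bp) and solute carriers 1 of 51 (Slc40a1, the iron exporter ferroportin, 1440 bp). With 0 or 1 lost gene in a list, these counts are too small to be set apart from the 5.83% of all genes counted.

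Cytokine and zinc finger genes gave 3 and 4 cases. These few genes stand beside a share of 5.83% over all genes counted. Of 18 cytokine genes 3 were lost (16.7%): Il12rb2, a subunit of the interleukin-12 receptor (2027 bp), Tnfrsf9, a costimulatory receptor of T cells (301 bp), and Tnfaip6, a hyaluronan-binding protein (279 bp). All 3 had promoter H3K4me3 peaks in all 5 Control and all 5 K27M libraries. Of 17 zinc finger genes 4 were lost (23.5%), Zfp738 with 1000 bp, Zfp40 with 617 bp, Zfp799 with 534 bp and Zfp111 with 244 bp, 9 were partly kept and 4 kept. All 4 had H3K4me3 in every library. Of 14 imprinted genes 1 was lost, Magel2, a paternally expressed gene of the Prader-Willi region. Its lost region (chr7:62375048-62377662, 2615 bp) had fold enrichments of 3.21, 3.82, 2.97, 3.98 and 4.97 in the Controls and 2.41 CpG per 100 bp, 4968 bp from the nearest K27M peak, and an H3K4me3 peak in all 10 libraries.

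The remaining genes with the most lost promoter bases were Olah (3022 bp), Gm884 and Nxph2 (3000 bp each), AW551984 (2590 bp), 2410137M14Rik (1925 bp), Gpr1, a chemerin receptor (1904 bp), and Ftl1-ps1, a copy of the ferritin light chain gene whose reads may come from its parent (1701 bp). At Gpr1 (chr1:63213222-63215127) Control fold enrichments were 3.08, 3.55, 2.68, 3.48 and 2.89, and CpG density was 1.94 per 100 bp. AW551984 had the strongest cortex enrichment of the group, 5.29 in cortex 60 and 4.98 in cortex 61, with 3.22 and 3.59 in the brainstem and 3.64 in cortex 59.

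Lost promoters differed in H3K4me3. Of the 110, 56 had a promoter H3K4me3 peak in no Control, the 34 receptors and 22 others, 13 had one in 1 to 4 Controls and 41 had one in all 5 Controls. Among the 76 genes other than receptors, the number of libraries with H3K4me3 was the same in K27M as in Control for 67, higher in K27M for 7 and lower for 2. Genes with H3K4me3 in all 10 libraries included Cast, the calpain inhibitor (754 lost promoter bp), and the teneurin adhesion genes Tenm2 (704 bp) and Tenm3 (408 bp).

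H3K4me3 had no part in the choice of the regions. An H3K4me3 peak overlapped 36 of the 1945 lost regions in Control brainstem 59 and 59 in its K27M partner, 34 and 25 in brainstem 61, 27 and 36 in cortex 59, 51 and 47 in cortex 60, and 49 and 61 in cortex 61. As shares, the Controls had 1.85%, 1.75%, 1.39%, 2.62% and 2.52% and the K27M cultures 3.03%, 1.29%, 1.85%, 2.42% and 3.14%. The ranges of the genotypes overlapped, and K27M was higher in 3 of 5 pairs and lower in 2. The mean difference was 0.319 percentage points (SD 0.660, n = 5 pairs), less than its spread. In kept regions the shares were 42.9% ± 13.7 (SD, n = 5) in Controls and 40.2% ± 8.38 in K27M, a difference of −2.63 points (SD 6.66), and in partly lost regions 11.5% ± 4.25 and 11.4% ± 2.81. The smallest two-sided p that a sign-flip permutation over 5 pairs allows is 0.0625, so no such test was run. Of the lost regions, 95.6% had no H3K4me3 peak in any of the 10 libraries, against 40.9% of kept regions. At the 261 lost regions that overlapped a promoter, the mean share was 11.3% ± 2.82 in Controls and 12.6% ± 4.06 in K27M, higher in K27M in 3 of 5 pairs.

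**Figure D5:**
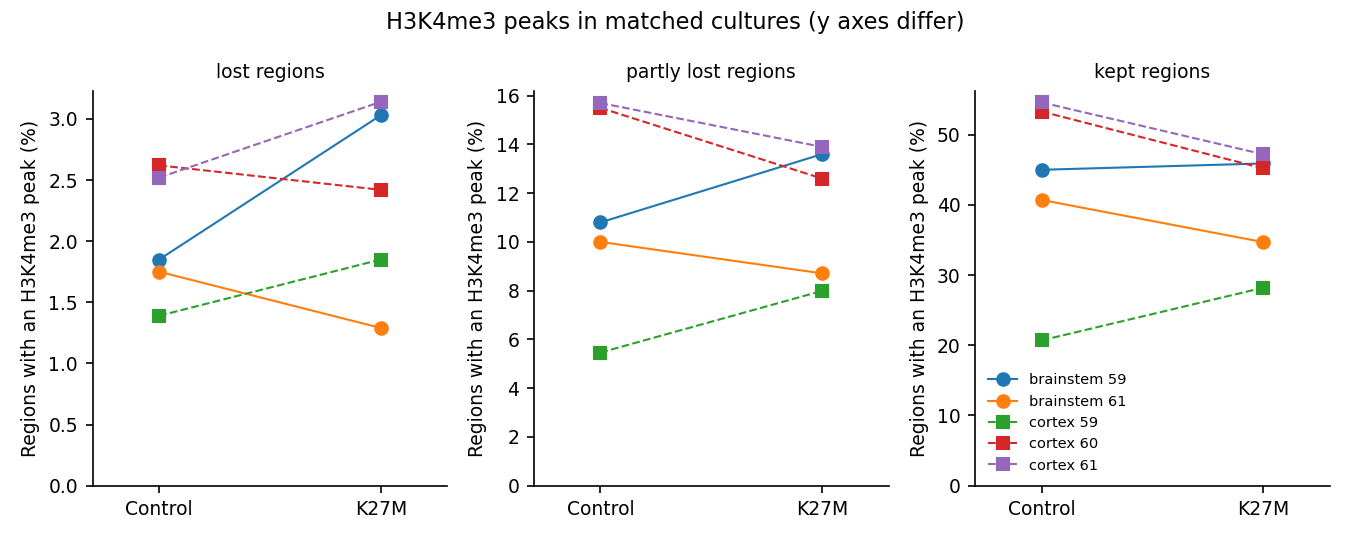
Share of regions (%) with an H3K4me3 peak in the Control and K27M library of each matched culture (circles and solid lines, brainstem; squares and dashed lines, cortex), for lost, partly lost and kept regions; the y axes differ between panels. In lost regions the share lies between 1.29% and 3.14% in every library and the lines run in both directions.

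Single regions seldom differed in H3K4me3. A region was said to have gained H3K4me3 when a peak was present in K27M and absent in the matched Control in at least 3 of 5 pairs with the opposite in none. This held for 4 lost regions (0.206%), beside 0.327% of all 7946 regions, and the mirror image for 0, beside 0.629% of all regions, 40 of which were kept regions. The lost share is thus near or below the background. The 4 were 458 bp upstream of Zfp40 (chr17:23194163-23194620; H3K4me3 in K27M brainstem 59 and cortex 59, 60 and 61, and in no Control), 1439 bp near Pdcd2 (chr17:15537158-15538596; K27M brainstem 59 and cortex 60 and 61, no Control), 442 bp in an intron of Rbfox1, a splicing regulator (chr16:7038473-7038914; 4 K27M libraries and Control cortex 60), and 305 bp at Cntnap2 (chr6:45060724-45061028; 3 K27M libraries, no Control). The promoter windows of Zfp40 and Cntnap2 as a whole had an H3K4me3 peak in all 5 Control and all 5 K27M libraries. The gain at these genes thus concerns the lost fragment alone and not the promoter. Control H3K27me3 enrichment at the Zfp40 region was 2.57, 3.33, 2.68, 3.58 and 2.98. All 4 counted brainstem 59 among their pairs, and without that culture 1 lost region passed the rule.

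H3K4me3 was present in all 5 Controls at 16 lost regions and in all 5 K27M libraries at 23. The 16, the members with both marks in every Control, were chosen here for that pattern and included Magel2, Il12rb2, Tenm3, Tenm2, Pi4k2b, Cast, Acvr1c, Mctp2 and Npy1r. In 15 of them all 5 K27M libraries had H3K4me3, and in the 1 at Pi4k2b 4 did. The distance to the nearest K27M H3K27me3 peak ranged from 15 bp in a region near Utp6 (chr11:79973137-79973954) to 2267648 bp at Npy1r (chr8:66697602-66697952).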

How the data were processed

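ChIP-seq peak lists of 20 libraries (H3K27me3 and H3K4me3; 5 Control and 5 K27M cultures) were used. Per the study's methods, the authors mapped reads to mm10 using BWA (0.7.17-r1188), discarded blacklisted sequence and ran MACS2 (2.2.7.1) on single libraries, each with the matching input as background and in broad mode for H3K27me3. Libraries were not merged, and Drosophila spike-in reads were not part of peak calling. Of the deposited columns, the position, the ratio of signal to input (fold enrichment) and the −log10 q of a peak were read. They hold no read depth. Read numbers differed between matched libraries, and their part in the absence of peaks was not tested.

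Peaks were merged within a library and intersected in Python (3.11.15, numpy 2.4.6, pandas 2.3.3), and the functions were tested on simulated intervals. Sequence came from GRCm38, the assembly of mm10, and genes from GENCODE M21, while the study used a later release. No peak ran past a chromosome end. The cultures were treated as matched, as in the study's methods: deviations of H3K4me3 presence from the group means correlated within pairs with r = 0.13 in brainstem and 0.62, 0.29 and 0.37 in cortex cultures 59, 60 and 61, across 7946 regions.

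The members, gene lists and tests were chosen with earlier results of these data known. Named were the 15 longest lost regions, the 15 genes with the most lost promoter bases, up to 4 genes per list, regions with a differing H3K4me3 call and the 5 stretches of 1 Mb with the most lost bases. Other regions and genes named are singled out after their values were seen: the H3K4me3-marked members, AW551984 and Gpr1 values, and the Hox flanks. Input libraries were not used here, and the sequence of 1 further promoter window is not reported here. Alternatives are given in the closing section.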

Additional observations from a re-analysis of the deposited data

How the results depend on the processing

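The number of lost regions, 1945 of 7946, depended on thresholds and on cultures. With a −log10 q of at least 3 required in all H3K27me3 lists it was 334 (11.3% of the regions covered in all Controls), with regions of at least 1000 bp 428 (10.3%), with no K27M peak within 5000 bp 1172 (14.7%), and with that q in the Control lists only, chosen after seeing the data, 101 (3.43%). With regions lost when under 50% of their length was covered in each K27M library, the share was 31.8%. With all chromosomes it was 24.2%. Leaving out each culture pair gave 2195 to 6112 regions and 27% to 44.4%. The highest values came without cortex 59, and without brainstem 61 there were 3388. The share at a promoter, 13.4%, was 26.6%, 15.9% and 21.8% with q of at least 3 in all lists, the 50% rule and q of at least 3 in the Control lists, 10.5% with windows of 1000 bp on both sides, 8.84% for protein-coding promoters, 11% by midpoint, and 13.3% to 18.4% over cultures left out. Kept regions were higher each time, at 37.1% or more. Median CpG per 100 bp, 0.604, was 0.754, 0.545, 0.644, 0.540 and 0.645 with q of at least 3, 1000 bp, the 50% rule, the 5000 bp distance and q in Controls only, and 0.607 to 0.862 over cultures left out, below kept regions (1.65 or more) in each. The H3K4me3 difference, 0.319 points, ranged from −0.151 without cortex 59 to 0.838 with q of at least 3. Without the pairing of cultures (no replicate block) 4 lost regions gained H3K4me3, as with it. With a culture left out it was 1 to 9, with 1 without brainstem 59, 9 without brainstem 61 and 2 without cortex 61. Genes with a lost promoter, 110, numbered 124 to 500 over cultures left out, 500 without cortex 59 and 181 without brainstem 61, which moved their share from 5.83% to 16.5% and 9.13%. The mean Control fold enrichment of lost regions, 2.91, ranged from 2.86 to 3.00 with a Control left out. Causes of these shifts were not tested. Counts over regions rest on 5 cultures per genotype.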

Other observations

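Among all genes, not protein-coding genes alone, with a promoter window over a lost region, 265 in number, 37 were processed pseudogenes (14%), retrotransposed gene copies, against 30 of 1812 (1.66%) for kept regions. Long intergenic non-coding RNA genes made up 8.30% and 7.78%, and microRNA genes 2 of 265 and 48 of 1812. The shares of these gene types among all annotated genes were not counted. The values thus set lost beside kept regions only and show no excess over the annotation. Zinc finger genes of the Zfp series, which often lie in clusters of similar copies, were within 20 kb of 74 lost (3.80%), 58 partly lost (1.75%) and 24 kept regions (0.895%). These shares are descriptions over regions and genes, which are not replicates.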
